A study of Drosophila melanogaster with 6 samples.

Results

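This account follows 2 noncoding RNAs of the female fruit fly midgut, the 7SL RNA (7SLRNA:CR42652) and the RNA of ribonuclease P (RNaseP:RNA), in flies with reduced RNA polymerase III (Pol III) function. They were taken by gene name, as every listed transcript whose annotated name starts with 7SLRNA: or RNaseP:RNA, and they are 2 of the 527 listed transcripts that matched the annotation (4 more did not match and carry no name). The mutant group carried 1 copy of the P-element insertion labelled dC53EY22749 in Polr3D (formerly dC53), which encodes a subunit found only in Pol III, and the wild type was the White Dahomey stock. Both came from the same outbred Dahomey background, cleared of Wolbachia, and were about 1 week old. There were 3 libraries per genotype, each made from RNA of dissected midguts that was enriched for molecules below 200 nucleotides and then demethylated. The mutants are heterozygous for a single insertion allele and have lived with it since development. Polr3D mRNA was not analysed here, so each genotype rests on its label, and the mRNAs that define the midgut were not analysed here either.

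The 7SL RNA is the scaffold of the signal recognition particle, which binds signal peptides as they leave the ribosome, slows translation and brings the ribosome to the endoplasmic reticulum. The digestive enzymes that the midgut secretes enter the secretory route this way. Ribonuclease P removes the 5′ leader from precursor tRNAs, and its RNA is the catalytic component. The 7SL gene is a Pol III gene. RNase P RNA is also a Pol III product in yeast and in humans, but in insects its gene sits inside a protein-coding gene and is transcribed by RNA polymerase II, so in the fly the pair is not made by the same polymerase.

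Both genes lie on chromosome 3R of the BDGP6 assembly, and each is a single exon of 299 bases. 7SLRNA:CR42652 (FBtr0302398) runs from 6820131 to 6820429 on the minus strand. A second copy of the same annotated length, 7SLRNA:CR32864 (6822500 to 6822798, plus strand), points away from it with 2070 bases between them. Each copy has a Lys-TTT-2 tRNA gene 164 bases beyond its 3′ end and another 638 bases from its 5′ end, so 4 of the 5 annotated Lys-TTT-2 genes stand in mirror image around the 7SL pair. CR42652 is the listed identifier and CR32864 was not analysed here. How alike the sequences of the 2 copies are was not checked, so whether the value called 7SL below includes reads from CR32864 is not known. RNaseP:RNA (FBtr0085775) runs from 31217364 to 31217662 on the minus strand. It lies within an intron of 562 bases in all 5 annotated transcripts of ATPsynC, which encodes a subunit of the mitochondrial ATP synthase, on the same strand, and no annotated ATPsynC exon overlaps it. An isoform that is 4 bases shorter (295 bases) was not analysed here.

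**Figure D1:**
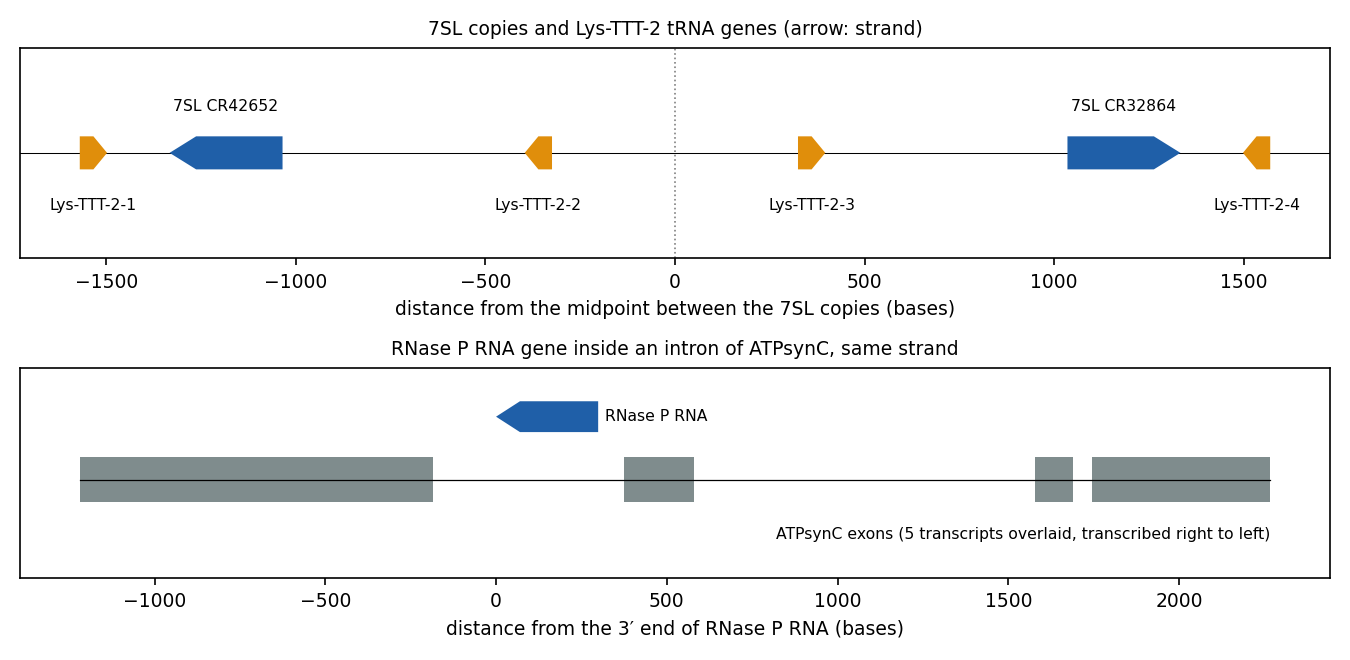
Gene maps drawn to scale from the BDGP6 annotation, with distance in bases on the x axis and arrows pointing in the direction of transcription. The upper map shows both 7SL copies (blue) and 4 Lys-TTT-2 tRNA genes (orange) in mirror image, and the lower map shows RNase P RNA (blue) within an intron of ATPsynC, whose exons (grey) are overlaid from 5 transcripts.

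Estimated counts summed over the listed transcripts ran from 13465392 to 16891428 per library. Values below are CPM (each count relative to the total of its library) after TMM scaling, which sets libraries to a common level from the bulk of the transcripts, unless another scale is named. 7SL was an abundant RNA: its count ranked between 7 and 11 among all listed transcripts in every library. RNase P RNA ranked between 106 and 135. At 155116 to 242687 counts for 7SL, the 95% Poisson interval had a half-width of at most 0.498% of the count. At 1913 to 3174 counts for RNase P RNA it was at most 4.51%. These intervals cover counting error only, and the spread between libraries was larger. The labels do not say whether the libraries came from separate groups of animals, so p-values measure the spread between these libraries, which may be technical.

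The 2 RNAs have the same annotated length, so their counts need no length correction. The share of each that passed the size selection is not known. In mutant replicates 1, 2 and 3, 7SL counts were 81.1, 97.6 and 72.4 times those of RNase P RNA. In wild-type replicates 1, 2 and 3 they were 82.0, 75.6 and 83.3 times as high. The ratio therefore overlapped between the genotypes. As a level per kilobase, 7SL reached 44377 ± 6867 CPM in mutant libraries (SD, n = 3) against 49911 ± 5910 in wild-type libraries. RNase P RNA reached 542 ± 143 CPM per kilobase against 624 ± 96.6. On this scale U6:96Ab, the spliceosomal RNA made by Pol III, stood at 2689 ± 553 against 2349 ± 264. U6atac, its counterpart in the minor spliceosome, stood at 209 ± 55.8 against 287 ± 22.4. In each of the 6 libraries the order per base was the 5S rRNA listed as CR33434, then 7SL, U6, RNase P RNA and U6atac, and no neighbours in this order overlapped. These levels follow size selection. At 299 bases both members are the longest annotated length in the table and exceed the 200-nucleotide limit of the selection. Intact RNA that passed the step and shorter pieces of it cannot be told apart in the counts. U6:96Ab (107 bases), U6atac (97 bases) and the 5S rRNA (135 bases) lie below that limit. The order therefore describes RNA after selection and need not hold in the tissue.

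The first comparison asked whether the 2 RNAs differ between Polr3D mutant and wild-type midguts. Neither passed the test. Both were somewhat lower on average in the mutant, by less than the spread between libraries. For 7SL the mutant libraries held 11201, 13298 and 15307 CPM in replicates 1, 2 and 3. The wild-type libraries held 15948, 15939 and 12883 CPM. Mutant replicate 3 thus lay above wild-type replicate 3, and the groups overlapped. Mutant libraries averaged 13269 ± 2053 CPM and wild-type libraries 14924 ± 1767 (SD, n = 3 each), which is a difference of -11.1% (exact permutation test, two-sided p = 0.3). In edgeR's quasi-likelihood fit over 411 transcripts the log2 fold change was -0.17 (SE 0.17, adjusted p = 0.623). Its 95% interval ran from -0.57 to 0.23, which leaves room for changes between 0.676 and 1.17 times the wild-type level. Leaving out 1 library moved the estimate from -0.07 (without mutant replicate 1) to -0.28 (without mutant replicate 3), with edgeR adjusted p from 0.882 to 0.474.

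For RNase P RNA the mutant libraries held 138, 136 and 211 CPM in replicates 1, 2 and 3. The wild-type libraries held 194, 211 and 155 CPM. Mutant replicates 1 and 2 were the lowest of the 6 libraries. Mutant replicate 3 and wild-type replicate 2 were level at the top, at 211 CPM each, so the mutant group spanned the wild-type range. By library totals without TMM, mutant replicate 3 (201 CPM) lay below wild-type replicates 1 and 2 (220 and 218 CPM). Mutant libraries averaged 162 ± 42.9 CPM and wild-type libraries 187 ± 28.9 (SD, n = 3 each), which is a difference of -13.3% (exact permutation test, two-sided p = 0.5). The edgeR log2 fold change was -0.21 (SE 0.20, adjusted p = 0.602), with a 95% interval from -0.66 to 0.24, or 0.635 to 1.19 times the wild-type level. Leaving out 1 library moved it from -0.08 (without mutant replicate 2, edgeR adjusted p = 0.935) to -0.44 (without mutant replicate 3, edgeR adjusted p = 0.178, in a fit that called 11.3% of transcripts). In bulk tissue, fewer cells of a type and less RNA per cell cannot be told apart.

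**Figure D2:**
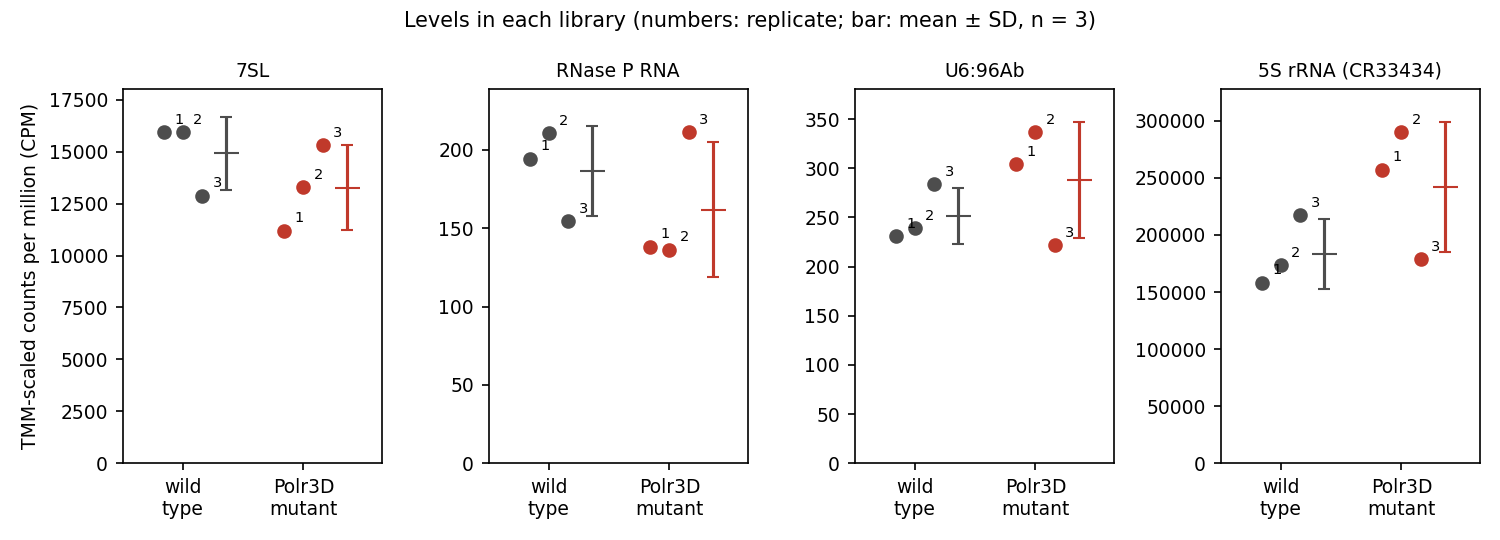
TMM-scaled CPM (y axis, from 0) of 7SL, RNase P RNA, U6:96Ab and the 5S rRNA listed as CR33434, in the 3 wild-type (grey) and 3 Polr3D mutant (red) libraries, with replicate numbers beside the points and mean ± SD as bars. The groups overlap in all 4 panels, and mutant replicate 3 and wild-type replicate 2 share the highest RNase P RNA level (211 CPM).

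Of the 411 transcripts tested, 5 (1.22%) passed an adjusted p of 0.10 in this fit, and neither member was among them. Neither had an unadjusted p below 0.05 (0.357 for 7SL and 0.329 for RNase P RNA, edgeR), against 61 of all tested, or 14.8%. DESeq2, the study's tool, called neither (adjusted p = 0.747 for each) and 7.21% of all transcripts. Limma-voom also called neither (adjusted p = 0.637 and 0.585), and 0.0% of all transcripts, with 61 at an unadjusted p below 0.05. Of all transcripts tested, 77 (18.7%) had mutant and wild-type CPM values that did not overlap, and neither member was among these. In absolute size, 58.4% of transcripts had a larger log2 fold change than 7SL and 48.7% a larger one than RNase P RNA, so both sat near the middle of the table. The coefficient of variation of 7SL was 15.5% among mutant libraries and 11.8% among wild-type libraries, and that of RNase P RNA was 26.5% and 15.5%. The medians over 329 transcripts with a mean of at least 10 CPM were 14.4% and 11.5%, so 7SL varied about as much as a typical transcript and RNase P RNA more.

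Other short RNAs, of the same polymerases and of mitochondria, give the setting for these values. Of 80 nuclear tRNAs tested, whose 5′ ends ribonuclease P makes, 5 passed, all higher in the mutant, and their median log2 fold change was 0.34. Of 11 listed 5S rRNAs none passed in edgeR, with 4 at an unadjusted p below 0.05, and the median was 0.39. The edgeR estimate for U6:96Ab was 0.19 on the log2 scale (SE 0.17, adjusted p = 0.59). For U6atac it was -0.46 (SE 0.20, edgeR adjusted p = 0.331). The 243 small nucleolar and Cajal body RNAs, most of which are processed from introns of genes read by RNA polymerase II, had a median of -0.14 with none called and 21 at an unadjusted p below 0.05. The 19 other small nuclear RNAs had a median of 0.01, with 10 positive and 9 negative. The 22 mitochondrial tRNAs, made by the mitochondrial polymerase, had a median of 0.25, with 21 positive and 1 negative. The median over all 411 transcripts was -0.05. U6 and U6atac, 1 positive and 1 negative, had a median of -0.13 as a class. The fitted values of 7SL and RNase P RNA, at -0.17 and -0.21, thus lay nearest to the snoRNA median and this U6 class median. Those medians hardly differed. This description rests on no test, and whether the classes differ by polymerase was not tested.

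**Figure D3:**
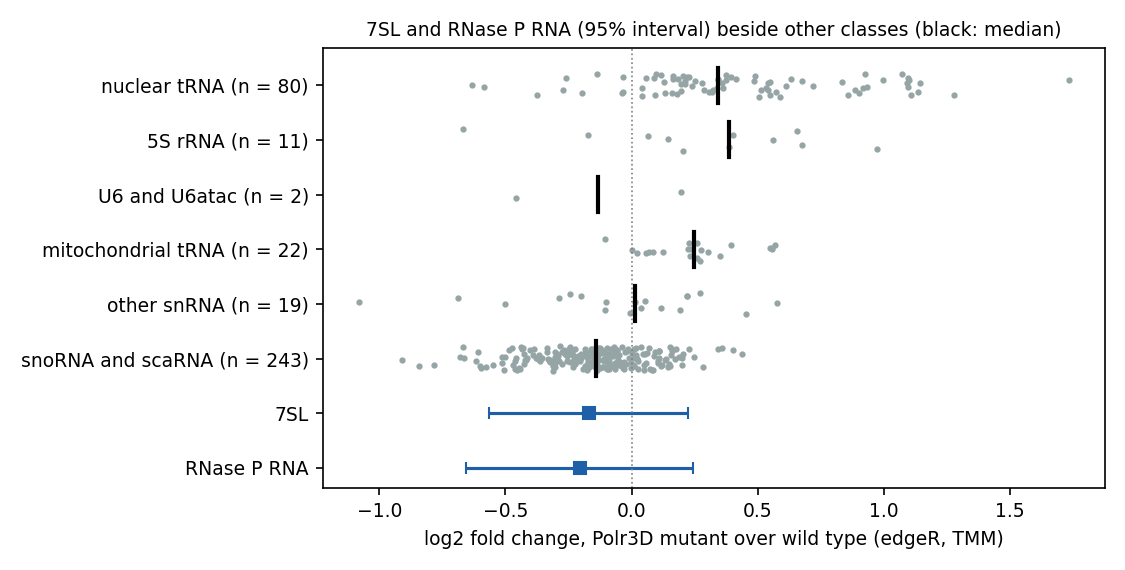
Log2 fold change of the Polr3D mutant over wild type (x axis, edgeR with TMM scaling) for each tested transcript of 6 classes (grey points, black line at the class median) and for 7SL and RNase P RNA (blue squares with 95% intervals). Both intervals include 0. The medians are 0.34 for nuclear tRNAs, 0.39 for 5S rRNAs, 0.25 for mitochondrial tRNAs and 0.01 for other small nuclear RNAs. They are -0.13 for U6 and U6atac and -0.14 for small nucleolar and Cajal body RNAs.

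Length was considered because both members exceed the size limit of the RNA selection. The table listed 42 transcripts of 200 bases or more, of which 16 were tested. The other 14 had log2 fold changes from -0.51 to 0.36 with a median of -0.09, none was called in edgeR, and 1 had an unadjusted p below 0.05. The lowest, RpL39, held only 3.13 CPM in mutant and 4.47 CPM in wild-type libraries. The highest, snoRNA:CG32479-a, held 53.4 and 41.6 CPM. The most abundant of them, the U3 snoRNA U3:54Ab of 210 bases, which takes part in processing of the ribosomal RNA precursor, averaged 1055 CPM in mutant and 1094 CPM in wild-type libraries (log2 fold change -0.05, SE 0.13, edgeR adjusted p = 0.835). The U11 RNA of the minor spliceosome, at 275 bases, had 21.9 and 19.2 CPM (0.19, SE 0.19, edgeR adjusted p = 0.602). Among the negative ones, lncRNA:CR43604 had 94.8 and 111 CPM (-0.23, SE 0.13, edgeR adjusted p = 0.425). LncRNA:CR34335 had 17.9 and 23.6 CPM (-0.40, SE 0.21, edgeR adjusted p = 0.391). Positive values were found for 5 of these 14 and negative ones for 9.

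The tRNA next to 7SL was also read. The listed identifier tRNA:Lys-TTT-2-1, the gene 164 bases from 7SLRNA:CR42652, encodes a lysine tRNA. It held 179, 154 and 180 CPM in mutant replicates 1, 2 and 3 and 166, 180 and 152 CPM in wild-type replicates 1, 2 and 3, which overlapped. Its log2 fold change was 0.04 (SE 0.13, edgeR adjusted p = 0.889). Other genes share the Lys-TTT-2 name, and whether their sequences are identical was not checked. A further identifier of that name (Lys-TTT-2-5) held 226 counts in mutant replicate 3, 503 in wild-type replicate 3 and 0 in the other libraries. The value of Lys-TTT-2-1 therefore cannot be given to the genes beside 7SL.

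A fold change depends on what the libraries are scaled to, so each member was also divided by other RNAs of the same library, which needs no scaling between libraries. Across 13 such ratios, the smallest exact permutation p that 3 libraries against 3 allow, 0.1, was reached by 4, and the Benjamini-Hochberg adjusted value of these was 0.325. The ratio of 7SL to RNase P RNA differed by 0.05 on the log2 scale (exact permutation p = 0.9). Relative to summed nuclear tRNAs, 7SL stood at 7.49%, 7.97% and 9.02% in mutant replicates 1, 2 and 3. In wild-type replicates 1, 2 and 3 it stood at 16.8%, 15.3% and 11.6%. All mutant libraries lay below all wild-type libraries, with a mean log2 difference of -0.82. RNase P RNA stood at 0.0923%, 0.0816% and 0.125% of the tRNA sum in the mutant and at 0.205%, 0.202% and 0.139% in the wild type, a mean log2 difference of -0.87, again without overlap. This is the common behaviour of the table, since 72.0% of all tested transcripts were lower in the mutant without overlap on this ratio. With nuclear tRNA sums as the scale, edgeR placed 7SL at -0.84 (SE 0.20, adjusted p = 0.00272) and RNase P RNA at -0.87 (SE 0.21, adjusted p = 0.00282), and 77.6% of transcripts were called lower. In that fit the median transcript stood at -0.69, so the members lay at -0.14 and -0.18 relative to it on the log2 scale. TMM factors from nuclear tRNAs alone, a scaling chosen after seeing the data, gave -0.45 (SE 0.15, edgeR adjusted p = 0.0843) and -0.49 (SE 0.18, edgeR adjusted p = 0.0995), with 22.1% of transcripts called lower.

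The ratios to summed mitochondrial tRNAs, products of the mitochondrial polymerase, had the smallest pooled SD of each member's ratios. 7SL stood at 6.09%, 6.51% and 6.05% of that sum in mutant replicates 1, 2 and 3. In wild-type replicates 1, 2 and 3 it stood at 8.42%, 7.98% and 7.76%. The log2 difference was -0.37 with a pooled SD of 0.0591, and no mutant library reached the wild-type range. RNase P RNA stood at 0.0752%, 0.0667% and 0.0836% against 0.103%, 0.106% and 0.0932%, a log2 difference of -0.42 with a pooled SD of 0.133, also without overlap. Of all tested transcripts, 17.3% were lower in the mutant without overlap on this ratio. In the edgeR fit scaled on mitochondrial tRNAs neither member passed (7SL adjusted p = 0.28, RNase P RNA adjusted p = 0.349), 1.7% of transcripts did, and the median transcript stood at -0.24. The tRNA sum of the mitochondria itself overlapped between the genotypes. Ratios to U6, 5S rRNA, snoRNA sums and 5.8S rRNA overlapped as well, with exact permutation p values from 0.2 to 0.8 (n = 3 per genotype). Of all tested transcripts, 9.98%, 20.7%, 4.14% and 3.89% were lower without overlap on these ratios, in that order.

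**Figure D4:**
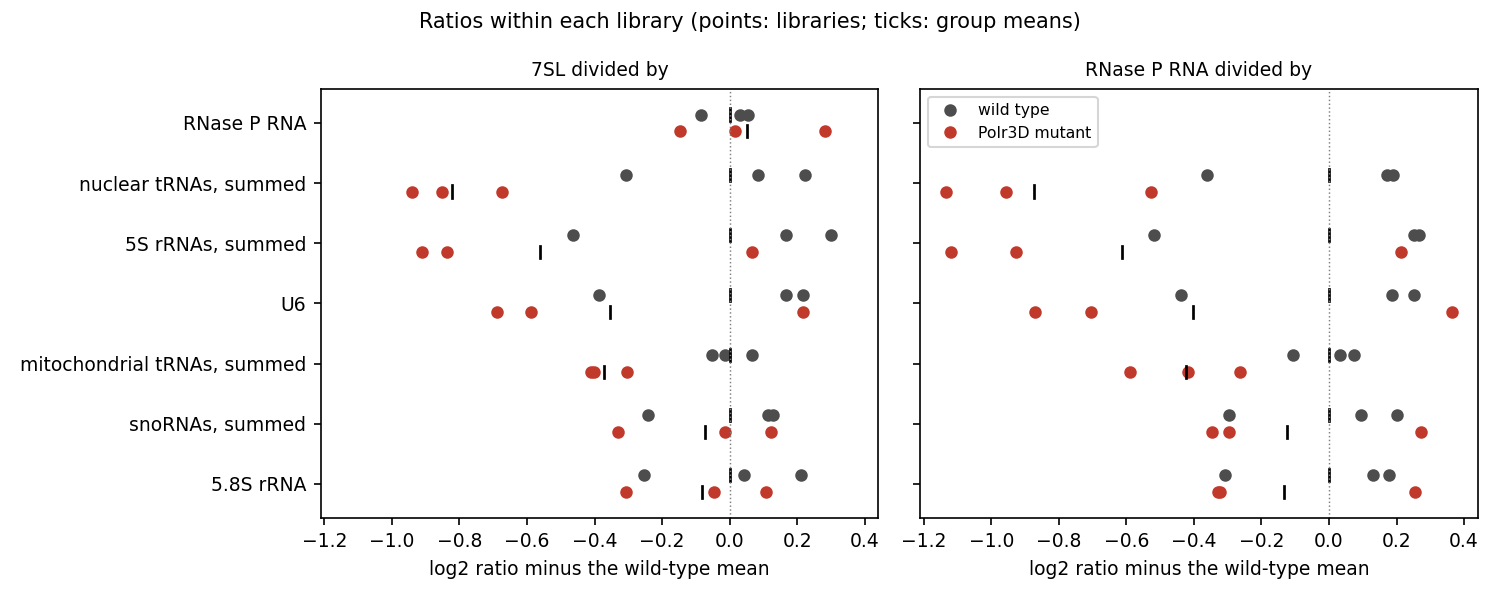
Log2 ratio of 7SL (left) and RNase P RNA (right) to other RNAs of the same library, with the wild-type mean set to 0 on the x axis. Points are libraries (grey wild type, red Polr3D mutant, n = 3 each) and ticks are group means. Mutant and wild-type points separate for nuclear and mitochondrial tRNA sums and overlap for the other denominators.

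The libraries of one genotype also differed among themselves. How many other transcripts share the sign pattern described here was not counted. On log2 CPM, 7SL and RNase P RNA were both above their own means in wild-type replicates 1 and 2 and mutant replicate 3, and both below them in wild-type replicate 3 and mutant replicates 1 and 2. U6 and the 5S rRNA sum had the opposite signs in all 6 libraries. These relations were chosen after the values were seen, the libraries share their scaling factors, and 13 relations were computed. Over the 6 libraries 7SL and RNase P RNA had Pearson r = 0.89 (exact permutation p = 0.0556) and Spearman rho = 0.60 (exact permutation p = 0.242), and r was 0.92 without wild-type replicate 1 and mutant replicate 1, the libraries farthest from the median. RNase P RNA and U6 had r = -0.96 (exact permutation p = 0.0125) and rho = -0.94 (exact permutation p = 0.0167), and r was -0.93 without mutant replicates 1 and 2. RNase P RNA and the 5S sum had r = -0.93 (exact permutation p = 0.025) and rho = -0.77 (exact permutation p = 0.103), with r = -0.79 without the same libraries. None passed 0.10 after Benjamini-Hochberg adjustment over the 13, where the lowest values were 0.163 for r and 0.217 for rho. As deviations from genotype means, for which no p-value was computed, 7SL and RNase P RNA had r = 0.87. On this scale RNase P RNA had r = -0.96 with U6 and -0.94 with the 5S sum, and 7SL had -0.76 and -0.77. With the nuclear tRNA sum they had 0.07 and 0.12, in that order. With the snoRNA sum RNase P RNA had 0.002 and 7SL -0.45, and with 5.8S rRNA they had 0.11 and -0.14. 7SL and the mitochondrial tRNA sum had r = 0.96, and RNase P RNA and that sum had r = 0.95. Without removing the genotype means these were 0.47 (exact permutation p = 0.358; rho = 0.43, p = 0.419) and 0.51 (exact permutation p = 0.328; rho = 0.37, p = 0.497), and without the 2 libraries farthest from the median they were 0.63 and 0.80.

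**Figure D5:**
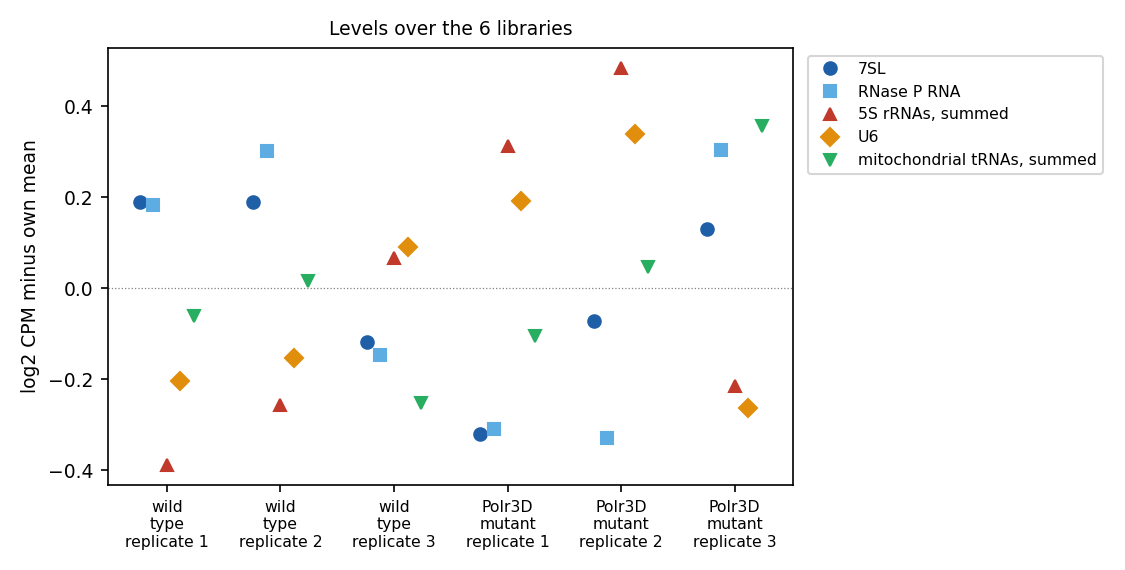
Log2 CPM of 7SL, RNase P RNA, summed 5S rRNAs, U6 and summed mitochondrial tRNAs in each of the 6 libraries, each RNA set to its own mean over the libraries (0 on the y axis). 7SL and RNase P RNA lie on the same side of 0 in every library, and U6 and 5S rRNA lie on the other side.

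The transcripts whose profile over the 6 libraries was most like each member were found by the root mean square difference of log2 CPM after subtracting each transcript's own mean, among 328 others with at least 10 CPM. For 7SL the closest was snoRNA:Psi28S-2622, an H/ACA guide RNA of 140 bases for pseudouridine in 28S rRNA (0.0655), followed by scaRNA:MeU2-C41 (0.0940), snoRNA:Psi18S-841a (0.0997), snoRNA:lola-a (0.103) and the microRNA precursor mir-956 (0.117). The median over all candidates was 0.293. RNase P RNA ranked 9 among them, at 0.135. For RNase P RNA the closest was snoRNA:Psi28S-1837a, of 137 bases (0.0717), followed by tRNA:Lys-TTT-1-1 (0.128), 7SL itself (0.135), snoRNA:Psi28S-2622 (0.136) and mir-956 (0.139), where the median was 0.338. Both members shared snoRNA:Psi28S-2622 and mir-956 among their 5 closest, and the members themselves lay only 0.135 apart. U6 and the 5S sum had signs opposite to both members in all 6 libraries, so by this measure they could not be close. Small nucleolar and Cajal body RNAs made up 243 of the 411 transcripts tested. Their number in these lists was not compared with their share of the candidates.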

How the data were processed

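Small RNA of 6 midgut libraries was sequenced, 3 per genotype. The authors trimmed reads with Cutadapt, quantified them with Salmon against all fly transcripts of the BDGP6 assembly, kept transcripts shorter than 300 bases, and deposited estimated counts (expected counts) per transcript as whole numbers, not scaled for depth. Groups came from sample titles. Names and coordinates came from BDGP6 annotation release 54, matched by identifier for 527 transcripts (4 did not match). Genes and lists were chosen with earlier results of these data known. Total counts ran from 13465392 to 16891428. Counts were tested in R 4.3.3 with edgeR 4.0.16: the default filterByExpr (10 counts at least, 15 in total) kept 411 transcripts and removed 120, then TMM, glmQLFit and glmQLFTest, genotype as the single term, threshold adjusted p 0.10, the study's false discovery rate. All tests were two-sided. Intervals and standard errors came from the F statistic. Ratios, CPM and relations between RNAs over libraries used exact permutation (scipy 1.17.1). Alternatives used DESeq2 1.42.0, limma 3.58.1 (voom), other scalings, no filter, the replicate number as a block, and each library left out. Named transcripts are both members, U6, the main 5S rRNA, neighbours, and the 5 closest profiles per member. U6atac, U3:54Ab, U11, RpL39, snoRNA:CG32479-a, lncRNA:CR43604 and lncRNA:CR34335 were added after their values were seen. Replicates differed beyond sampling noise in every pair (chi-square divided by degrees of freedom, 212 to 1409). Nucleotide sequences were not used here.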

Additional observations from a re-analysis of the deposited data

How the results depend on the processing

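Both members were negative in DESeq2, in limma-voom and under each alternative run in edgeR. They passed under both scalings on nuclear tRNAs, as did many other transcripts. With tRNA sums they stood at -0.84 (7SL) and -0.87 (RNase P RNA). In that fit the median transcript stood at -0.69 and 77.6% of transcripts were called lower. With TMM factors from tRNAs, chosen after seeing the data, they stood at -0.45 and -0.49 (edgeR adjusted p = 0.0843 and 0.0995). There 22.1% of transcripts were called lower. Leaving out 1 library gave -0.28 to -0.07 for 7SL and -0.44 to -0.08 for RNase P RNA (edgeR adjusted p at least 0.474 and 0.178). Relative to the median of all tested transcripts in the same fit, 7SL then ran from -0.27 (without wild-type replicate 3) to -0.0017 (without mutant replicate 1), and RNase P RNA from -0.41 (without mutant replicate 3) to -0.04 (without wild-type replicate 2). With 1 library left out, 3 of the 13 ratios changed sign on the log2 scale: 7SL to RNase P RNA (-0.07 to 0.15), 7SL to snoRNAs (-0.19 to 0.06) and 7SL to 5.8S rRNA (-0.21 to 0.03). The other 10 stayed negative.

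Against 5 calls in the table, DESeq2 made 30 (26 higher, 4 lower), limma-voom 0 (61 at an unadjusted p below 0.05), edgeR with DESeq2 size factors 10, library totals 16 (8 higher, 8 lower), snoRNA scaling 10, tRNA sums 327 (8 higher, 319 lower), TMM from tRNAs 101 (10 higher, 91 lower), mitochondrial tRNAs 7 (6 higher, 1 lower), and no filter 16. Without 1 library edgeR called 0 to 47: 12, 1 and 47 (27 higher, 20 lower) without mutant replicates 1, 2 and 3, and 0 without any one wild-type replicate, with 49, 45 and 42 at an unadjusted p below 0.05. Same-numbered libraries did not deviate together (correlations -0.02, -0.26 and -0.20, none best matched by its own number). A block on replicate number gave 14 calls over the table, with 7SL at -0.17 (edgeR adjusted p = 0.747) and RNase P RNA at -0.23 (adjusted p = 0.713). For the 2 members the spread between libraries was larger than the counting error. Their 95% intervals bound what 3 libraries per genotype could show.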
